A study of Mus musculus with 16 samples.

Results

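The mitochondrial carrier family, whose genes are named Slc25a and a number, was followed in the left ventricle of mice given angiotensin II (AngII), a hormone that raises blood pressure. Members were the rows of the count table with such a symbol and at least 160 counts summed over the 16 mice. Of 47 family rows, 1 further gene was not analysed here, and 39 of the other 46 reached the minimum, out of 24982 entries in the whole table. The 7 below it were Slc25a18 (80 counts), Slc25a43 (55), Slc25a2 (48), Slc25a21 (10), Slc25a41 (2), and Slc25a48 and Slc25a54 (0 each). Just inside the minimum were Slc25a31 with 193 counts and Slc25a53 with 206. All 39 members passed the filter on low counts in the tests below, which kept 13775 genes.

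Total RNA was sequenced from C57BL/6 mice, 1 library per mouse. The knockout mice were Tln2-null and also lacked Tln1 in cardiac fibroblasts (CF) by the labels, and they were set against Tln2-null mice that kept Tln1. Each genotype had 8 mice, 4 females and 4 males. Both genotypes received tamoxifen for 5 days and, after 2 weeks, AngII from osmotic pumps for 8 weeks. The labels name neither the Cre line that deleted Tln1 nor the age of the mice. By the labels every mouse carried the Tln2 loss and the treatment. Tln1 and Tln2 encode talins, which couple integrins to the actin cytoskeleton.

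Most members of this family sit in the inner mitochondrial membrane and exchange nucleotides, phosphate, carboxylic acids, amino acids, cofactors and metal ions between the cytosol and the matrix. They are built from repeats of a pair of membrane helices, and most lack a cleaved import signal and are inserted by the TIM22 machinery. Slc25a46 is instead found in the outer membrane and Slc25a17 in peroxisomes. In heart muscle, where most ATP is made in mitochondria, the family is known above all for the ADP/ATP carriers, the phosphate carrier and the carriers of the malate-aspartate shuttle.

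Library totals ran from 11161766 counts (knockout replicate 8) to 19221673 (knockout replicate 5). Levels are given in CPM, counts scaled to the library's total after that total was adjusted between libraries by TMM scaling. All 8 cardiomyocyte markers were detected in every mouse. Their summed level was 43230 to 51820 CPM in knockout ventricles, against 44050 to 48450 CPM in Tln2-null ventricles. Tln1 in the whole ventricle was 273.6 ± 31.3 CPM in knockout mice and 289.0 ± 20.7 CPM in Tln2-null mice (SD, n = 8 each), a log2 difference of -0.08 ± 0.07 (SE; edgeR's quasi-likelihood test, adjusted p = 0.942), so a loss of Tln1 was not detectable in whole ventricle. Tln2 had 67.1 ± 2.32 CPM in knockout and 66.8 ± 7.25 CPM in Tln2-null mice (SD). Its log2 difference was 0.01 ± 0.06 (SE; edgeR, adjusted p = 0.997). Tln2 reads were thus present in every mouse, at 55.6 CPM or more, although the labels call all of them Tln2-null. Where in the gene these reads lie cannot be seen in counts per symbol. Knockout replicate 8 and Tln2-null replicate 8 had high levels of Arntl, a core gene of the circadian clock (27.1 and 28.4 CPM), while no other library exceeded 8.44 CPM. In 4 females (knockout replicates 3, 5 and 7 and Tln2-null replicate 4) the Y-linked reads exceeded 1% of the male mean, with 1.11% to 2.89%.

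CPM per kilobase of merged exon length was the main scale used here when genes were compared with each other. Merged length joins all annotated exons of a gene, so the order of genes depends on it. On this scale Slc25a4 was highest, with Slc25a11, Slc25a3 and Slc25a5 next by mean. Slc25a11 exceeded Slc25a3 in 14 of the 16 mice, and their ranges overlapped. In CPM alone Slc25a3 was above Slc25a11, with means of 1637 and 646.5 over the 16 mice. Slc25a4 is the ADP/ATP carrier of heart and skeletal muscle (chromosome 8, 46206797 to 46211284, minus strand, GRCm38). It had 1490 ± 130 CPM per kilobase in knockout ventricles and 1435 ± 59.5 in Tln2-null ventricles. Slc25a4 alone made up 53.6% ± 2.08 of the family's per-kilobase sum in knockout and 52.95% ± 1.15 in Tln2-null ventricles (SD, n = 8 each). By mean, Slc25a11, the oxoglutarate-malate carrier of the malate-aspartate shuttle, came next at 307.2 ± 24.0 in knockout and 302.7 ± 16.4 in Tln2-null ventricles. Rnf167 overlaps Slc25a11 on the other strand, so its level is uncertain. Slc25a3, the phosphate carrier, had 298.7 ± 18.8 in knockout and 291.3 ± 16.03 in Tln2-null ventricles. Slc25a5, the ADP/ATP carrier found in most tissues, had 225.9 ± 14.5 in knockout and 230.7 ± 27.2 in Tln2-null ventricles. The fifth, Slc25a34, to which no substrate is given here, had 81.6 ± 6.91 in knockout and 82.2 ± 14.7 in Tln2-null ventricles. These 5 carriers held 86.5% ± 0.698 of the family sum in knockout and 86.4% ± 0.680 in Tln2-null ventricles. The remaining 34 members shared the rest.

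**Figure D1:**
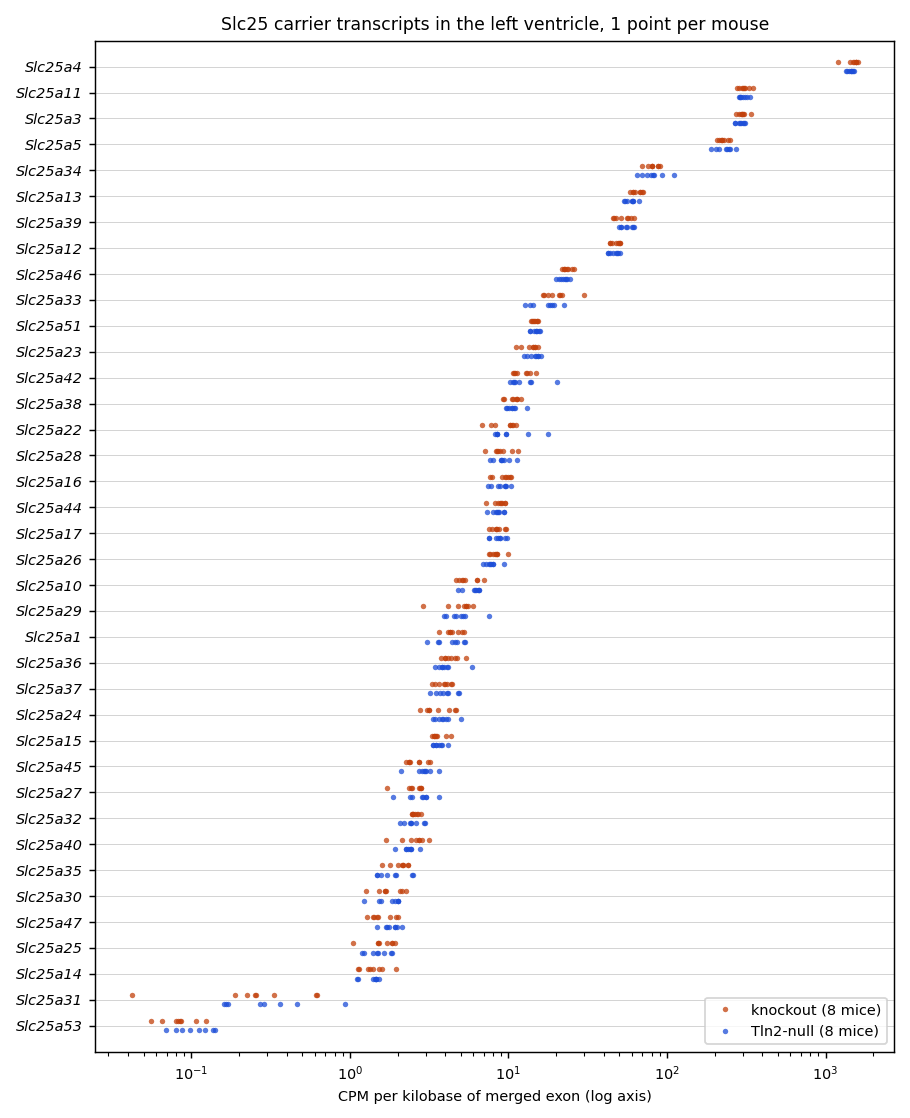
Level of 38 of the 39 members in each mouse, in CPM per kilobase of merged exon length on a log axis, ordered by mean. Points are single mice, knockout and Tln2-null. Slc25a4 lies alone at the top, with no overlap with Slc25a11 in any mouse, and Slc25a31 and Slc25a53 lie far below the rest.

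The order of levels had few clear steps. Of the 38 neighbouring pairs in that order, 34 had ranges over the 16 mice that overlapped. Compared within each mouse, 9 of the 38 pairs kept the same order in all 16 mice. The exact rank of most members is thus not fixed by these data. The 4 steps without overlap were from Slc25a4 to Slc25a11 (a ratio of means of 4.80), from Slc25a5 to Slc25a34 (2.79), from Slc25a12 to Slc25a46 (2.05) and from Slc25a14 to Slc25a31 (4.20). The middle of the order held carriers for cofactors and nucleotides, among them Slc25a51 for NAD+. Its level was 14.7 ± 0.580 CPM per kilobase in knockout and 14.8 ± 0.777 in Tln2-null ventricles. The mitoferrin genes for iron import were lower than Slc25a51, with Slc25a28 at rank 17 and Slc25a37 at rank 26 by mean. Slc25a28 had 9.07 ± 1.35 in knockout and 9.20 ± 1.16 in Tln2-null ventricles, and Slc25a37 had 3.90 ± 0.403 in knockout and 4.02 ± 0.587 in Tln2-null ventricles. At the bottom, Slc25a31, the ADP/ATP carrier known from male germ cells, had 0.316 ± 0.203 in knockout and 0.352 ± 0.256 in Tln2-null ventricles. Its raw counts ran from 1 to 37 per library, at or near the limit of detection.

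Related carriers were used at unequal levels. The ratio of Slc25a4 to Slc25a5, per kilobase, had a median of 6.93 over knockout mice (5.37 to 7.55) and 6.23 over Tln2-null mice (5.59 to 7.09). The calcium-regulated aspartate-glutamate carriers were nearer to each other: Slc25a12, called aralar and typical of muscle and brain, over Slc25a13, called citrin and typical of liver, had a median of 0.720 in knockout mice (0.690 to 0.861) and 0.7996 in Tln2-null mice (0.712 to 0.843). Slc25a13 was therefore above Slc25a12 in all mice on this scale, which divides by merged exon lengths of 3798 and 7342 bases. In CPM alone the order was the opposite in all mice. Slc25a12 had 311.2 to 373.7 CPM and Slc25a13 had 203.7 to 268.4 CPM. Which of the 2 has more transcripts is thus not settled here. Among the calcium-activated ATP-Mg/phosphate carriers, the ratio of Slc25a23 to Slc25a24 had a median of 4.41 in knockout mice and 3.72 in Tln2-null mice. Crb3 overlaps Slc25a23 on the other strand. Reads shared between the close copies, Slc25a4 with Slc25a5 and Slc25a12 with Slc25a13, could not be followed in counts per symbol.

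The promoters of these ADP/ATP and aspartate-glutamate carriers are shown because each pair of related genes differs in level or in the tissues it is known from. Each runs from 250 bases before to 50 bases after the transcript start in RefSeq, GRCm38.p6, 5′ to 3′ on the gene's strand. The genomic windows are chr8:46211013-46211312 (minus) for Slc25a4, chrX:36795347-36795646 (plus) for Slc25a5, chr2:71367706-71368005 (minus) for Slc25a12 and chr6:6217124-6217423 (minus) for Slc25a13. Starts differ between annotations. In GENCODE M21 the outer 5′ end of Slc25a4 is 46211284, inside its window near the upstream edge. Slc25a5 there starts at 36795651, just beyond the downstream edge of its window. Capitals mark every match to the motifs searched.
Slc25a4: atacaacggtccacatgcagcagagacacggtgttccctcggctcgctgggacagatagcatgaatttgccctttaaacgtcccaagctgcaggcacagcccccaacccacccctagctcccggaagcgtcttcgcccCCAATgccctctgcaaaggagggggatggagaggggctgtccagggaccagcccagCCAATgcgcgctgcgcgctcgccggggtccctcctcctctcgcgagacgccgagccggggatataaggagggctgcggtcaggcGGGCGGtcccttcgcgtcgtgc
Slc25a5: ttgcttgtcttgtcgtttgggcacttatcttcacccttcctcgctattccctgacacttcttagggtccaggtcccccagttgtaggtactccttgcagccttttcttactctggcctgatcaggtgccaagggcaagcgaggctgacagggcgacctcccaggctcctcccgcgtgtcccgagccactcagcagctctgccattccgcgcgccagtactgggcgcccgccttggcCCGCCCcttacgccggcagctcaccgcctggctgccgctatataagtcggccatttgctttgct
Slc25a12: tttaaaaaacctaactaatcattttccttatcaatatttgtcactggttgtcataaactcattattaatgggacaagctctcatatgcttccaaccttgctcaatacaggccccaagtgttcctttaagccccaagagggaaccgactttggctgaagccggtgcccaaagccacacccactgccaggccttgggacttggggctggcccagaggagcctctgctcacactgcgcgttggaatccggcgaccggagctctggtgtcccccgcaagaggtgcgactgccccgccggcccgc
Slc25a13: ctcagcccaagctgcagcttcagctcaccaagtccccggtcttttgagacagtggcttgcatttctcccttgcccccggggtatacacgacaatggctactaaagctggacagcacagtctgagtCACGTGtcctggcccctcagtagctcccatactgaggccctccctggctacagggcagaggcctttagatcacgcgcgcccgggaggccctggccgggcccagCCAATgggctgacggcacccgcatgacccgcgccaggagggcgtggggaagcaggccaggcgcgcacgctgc
The motifs were the GC box GGGCGG, the CCAAT box CCAAT, the TATA box TATAAA, the estrogen-related receptor half-site AAGGTCA, the palindromic NRF1 motif and the E-box CACGTG, searched on both strands. None of these motifs contains another. Slc25a4 held 2 CCAAT matches and 1 GC box, Slc25a5 held 1 GC box, Slc25a13 held a CACGTG and a CCAAT match, and Slc25a12 held no match. GC content was 65.7% for Slc25a4, 61% for Slc25a5, 54.3% for Slc25a12 and 65% for Slc25a13, against a median of 52.7% over all 32851 promoters. RefSeq promoters were matched for 30 members (39 promoters). The GC box was in 89.7% of the member promoters against 35.7% of all promoters, CCAAT in 53.8% against 37.4%, CACGTG in 20.5% against 7.15%, the NRF1 motif in 5.13% against 4.60%, the half-site in 2.56% against 4.72%, and TATAAA in 0% against 13.6%. These are matches of letters, described without a test, and they do not show that a factor binds. Variants of a motif were not searched, so the lower-case tataag in Slc25a4 and Slc25a5 does not count as TATAAA.

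No member passed the test between knockout and Tln2-null ventricles, and for most of the family the interval of the difference was narrow. With edgeR's quasi-likelihood test, 0 of 39 members passed at an adjusted p under 0.05, and so did 0 of 13775 genes (0% called). No member separated all 8 knockout from all 8 Tln2-null mice either, which 0.0436% of all genes did. The count of members was also 0 with DESeq2, with limma-voom and with limma on the deposited normalized values. At an unadjusted p under 0.05 there was 1 member, Slc25a13, that is 2.56% of the members against 5.08% of all genes tested. The members' median log2 difference was -0.01, with 18 above 0 and 21 below, and that of all genes was -0.00. The 95% interval of the difference lay within 0.25 on the log2 scale either way for 20 members, within 0.5 for 36 and within 1 for 38, the exception being Slc25a31. Whole ventricle was sequenced, so fewer cells of a type and less RNA per cell cannot be told apart in any of these values.

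**Figure D2:**
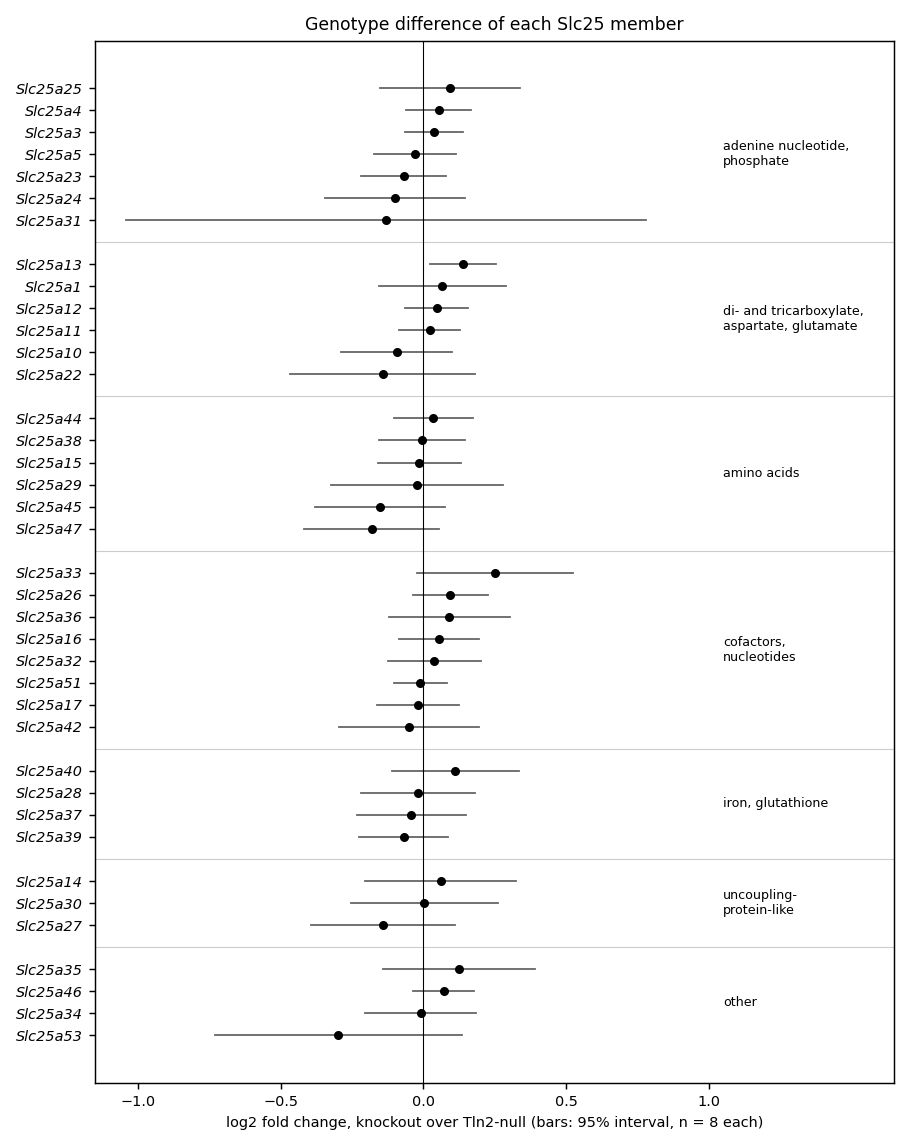
Log2 difference of 38 of the 39 members, knockout over Tln2-null, with its 95% interval from edgeR's quasi-likelihood fit, grouped by role and ordered by value within a group. The line at 0 marks no difference; every interval drawn includes 0 except that of Slc25a13, and no member passed after adjustment.

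The ADP/ATP carriers Slc25a4 and Slc25a5 and the phosphate carrier Slc25a3 lay close to 0. Slc25a4 had 2815 CPM in the lowest, 3607 in the median and 3776 in the highest knockout ventricle, against 3149, 3418 and 3562 CPM in Tln2-null ventricles. The groups overlapped throughout, and the knockout range was the wider because of knockout replicate 2, at 2815 CPM where the other 7 knockout mice had 3363 to 3776. The log2 difference was 0.05 ± 0.05 (SE; edgeR, adjusted p = 0.946), 0.10 without that mouse (adjusted p = 0.4705), and 0.02 without the 4 females carrying Y-linked reads. The same library had the lowest cardiomyocyte marker sum (43230 CPM) and the highest endothelial marker sum (1322 CPM) of the 16; the part of cell make-up in its value was not tested. Slc25a5 differed by -0.03 ± 0.07 and Slc25a3 by 0.04 ± 0.05 (edgeR, adjusted p = 0.975 and 0.959).

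**Figure D3:**
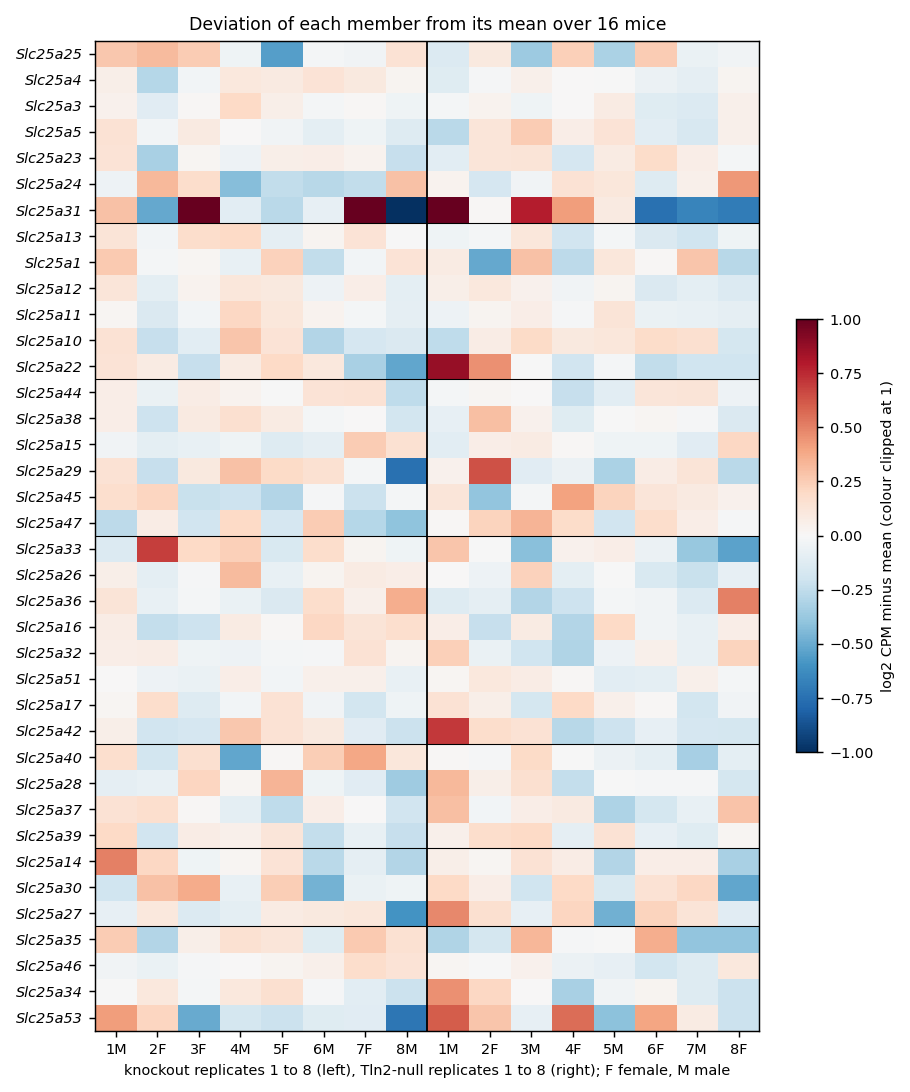
Deviation of log2 CPM from its mean over the 16 mice for 38 of the 39 members, members down the page and mice across, knockout mice left of Tln2-null mice. No block of members shifts with genotype. Over all 39, knockout replicate 8 has 27 members below their mean, Tln2-null replicates 7 and 8 have 26 each, and knockout replicate 1 has 30 above. Such counts were not made over all genes.

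Among the carriers of dicarboxylates, citrate, aspartate and glutamate, Slc25a13 (chromosome 6, 6041218 to 6217173, minus strand) had the lowest p of the family. It had 220.6, 248.0 and 268.4 CPM in the lowest, median and highest knockout ventricle, against 203.7, 227.5 and 253.2 CPM in Tln2-null ventricles. The groups overlapped over much of their range. The log2 difference was 0.14 ± 0.06 (SE; edgeR, adjusted p = 0.916), and it stayed between 0.11 and 0.17 when any 1 library was left out. Its partner Slc25a12 differed by 0.05 ± 0.05 (edgeR, adjusted p = 0.948), and Slc25a11 by 0.02 ± 0.05 (adjusted p = 0.975). The citrate carrier Slc25a1 and the dicarboxylate carrier Slc25a10 differed by 0.07 ± 0.11 and -0.09 ± 0.09. The 4 enzymes of the malate-aspartate shuttle, which work beside these carriers, lay between 0.01 and 0.07, and 0 of 4 passed.

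Slc25a33, a carrier of pyrimidine nucleotides (chromosome 4, 149744036 to 149774277, minus strand), showed the largest positive difference of the family, without passing. It had 31.2, 37.4 and 56.2 CPM in the lowest, median and highest knockout ventricle, against 24.0, 34.0 and 42.1 CPM in Tln2-null ventricles. The groups overlapped, and the highest value was again knockout replicate 2. The log2 difference was 0.25 ± 0.13 (SE; edgeR, adjusted p = 0.935), and 0.15 without that mouse (adjusted p = 0.7139). Its relative Slc25a36 differed by 0.09 ± 0.10. Slc25a26, which imports S-adenosylmethionine, differed by 0.09 ± 0.06 (adjusted p = 0.935) and is overlapped by Lrig1 on the other strand. Of the 9 carriers of cofactors and nucleotides, 5 lay above 0 and 4 below, and 0 passed.

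On the negative side stood Slc25a53, Slc25a47 and Slc25a45. Slc25a53 had 0.683 ± 0.173 CPM in knockout and 0.843 ± 0.209 CPM in Tln2-null ventricles (SD, n = 8 each), a log2 difference of -0.30 ± 0.21 (edgeR, adjusted p = 0.937), and -0.12 once the 4 females carrying Y-linked reads were left out. At 5 to 21 counts per library it is among the least precise, and Zcchc18 overlaps it on the other strand. Slc25a47 had 4.80 ± 0.823 CPM in knockout and 5.46 ± 0.612 CPM in Tln2-null ventricles, a difference of -0.18 ± 0.11 (adjusted p = 0.935), and -0.08 without those females. Slc25a45, placed with the amino acid carriers, had 7.28 ± 0.987 CPM in knockout and 8.10 ± 1.20 CPM in Tln2-null ventricles, a difference of -0.15 ± 0.11 (adjusted p = 0.939). It was -0.0078 without those females and -0.09 without Tln2-null replicate 4 alone. Of the 6 amino acid carriers tested, 1 lay above 0 and 5 below, between -0.18 and 0.03. The glutathione carrier Slc25a39 and the related Slc25a40 lay on either side of 0, at -0.07 ± 0.07 and 0.11 ± 0.11, and the mitoferrin genes Slc25a37 and Slc25a28 at -0.04 ± 0.09 and -0.02 ± 0.09.

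No gene of the lists that work beside the carriers passed either. In the carrier import pathway 0 of 13 genes passed, 8 lay above 0 and 5 below, with a median of 0.04 on the log2 scale. For ATP synthase and mitochondrial creatine kinase 0 of 17 tested genes passed (10 above 0, 7 below; median 0.02). For the porins and the pyruvate carriers the count was 0 of 5 (4 above, 1 below; median 0.02), and for the calcium uniporter complex 0 of 7 (3 above, 4 below; median -0.03). Of 11 regulators of mitochondrial biogenesis 0 passed and 8 lay above 0, with a median of 0.06. Esrrg, a nuclear receptor of heart metabolism, had 76.4 ± 3.61 CPM in knockout and 68.3 ± 6.26 CPM in Tln2-null ventricles, a log2 difference of 0.16 ± 0.06 (edgeR, adjusted p = 0.799). Gabpa, also called NRF2 alpha, differed by 0.15 ± 0.06 (adjusted p = 0.916). Of the 4 tested carrier relatives named outside Slc25a, 0 passed, and Mtch1, an outer-membrane member, differed by -0.17 ± 0.07 (adjusted p = 0.916). Beside these stand the marker lists: all 8 cardiomyocyte markers lay above 0 (median 0.07) and all 8 fibroblast markers below (median -0.37), with 0 passing in either list. Under an unadjusted p of 0.05 were 2 of the 8 cardiomyocyte and 6 of the 8 fibroblast markers, against 5.08% of all genes. The fibroblast marker of lowest p, Tcf21, differed by -0.93 ± 0.18 (edgeR, adjusted p = 0.158). The part of these markers in the carrier values was not tested.

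Between the sexes, 0 of 39 members passed, against 12 of 13775 genes (0.0871%) with edgeR's quasi-likelihood test. At an unadjusted p under 0.05 there was 1 member, 2.56% of the family against 3.69% of all genes. That was Slc25a16, a carrier linked to coenzyme A, with 35.4, 40.1 and 47.5 CPM in the lowest, median and highest female, against 41.2, 46.1 and 50.2 CPM in males. The sexes overlapped, as they did for all 39 members (0.109% of all genes separated them), and the log2 difference, female over male, was -0.20 ± 0.07 (SE; edgeR, adjusted p = 0.9998). The coenzyme A carrier Slc25a42 had -0.20 ± 0.12, and -0.08 without the highest male, Tln2-null replicate 1 at 120.9 CPM. The citrate carrier Slc25a1 had -0.21 ± 0.11 and Slc25a26 had -0.13 ± 0.06. Slc25a30, a relative of the uncoupling proteins, and the ATP-Mg/phosphate carrier Slc25a25 had differences of 0.19 ± 0.12 and 0.15 ± 0.12. Without the females carrying Y-linked reads these were 0.10 and 0.29, and without knockout replicate 5 alone the difference of Slc25a25 was 0.23. Slc25a5, Slc25a14 and Slc25a53 lie on the X chromosome, and their differences were 0.02 ± 0.07, -0.00 ± 0.13 and 0.08 ± 0.21.

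Within each sex, 0 of 39 members passed between genotypes with edgeR, as did 0 of 13775 genes (0% called) in females and in males. At an unadjusted p under 0.05 there was 1 member in females (2.56% of the family against 3.31% of all genes) and 1 in males (2.56% against 6.07%). In females the lowest p was that of Slc25a1, with 9.22, 9.28, 9.52 and 11.02 CPM in knockout females, against 6.59, 7.78, 7.87 and 9.50 CPM in Tln2-null females. The highest Tln2-null female lay inside the knockout range, and no member separated the genotypes in females, where 2.06% of all genes did. The log2 difference was 0.30 ± 0.13 (SE; edgeR, adjusted p = 0.9998). Next in females were Slc25a33 at 0.35 ± 0.19 and Slc25a13 at 0.15 ± 0.08 (edgeR, adjusted p = 0.9998 each). Without the females carrying Y-linked reads, which leaves knockout replicate 2 as the only knockout female, these were 0.87 and 0.04, and without knockout replicate 2 the difference of Slc25a33 was 0.16. In males Slc25a36 had 38.4, 43.9, 45.4 and 51.8 CPM in knockout males, against 32.8, 36.6, 36.7 and 39.8 CPM in Tln2-null males, a difference of 0.30 ± 0.13 (edgeR, adjusted p = 0.775). Its highest value came from knockout replicate 8, the library with high Arntl, and without both such libraries the difference was 0.22 (adjusted p = 0.998). Slc25a25 had 11.8, 11.9, 13.4 and 14.6 CPM in knockout males, against 9.44, 9.71, 11.1 and 11.6 CPM in Tln2-null males, without overlap, as in 3.21% of all genes in males. Its difference was 0.30 ± 0.16 (edgeR, adjusted p = 0.775), and Naif1 overlaps it on the other strand. Slc25a28 differed by -0.23 ± 0.12 in males (edgeR, adjusted p = 0.775).

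**Figure D4:**
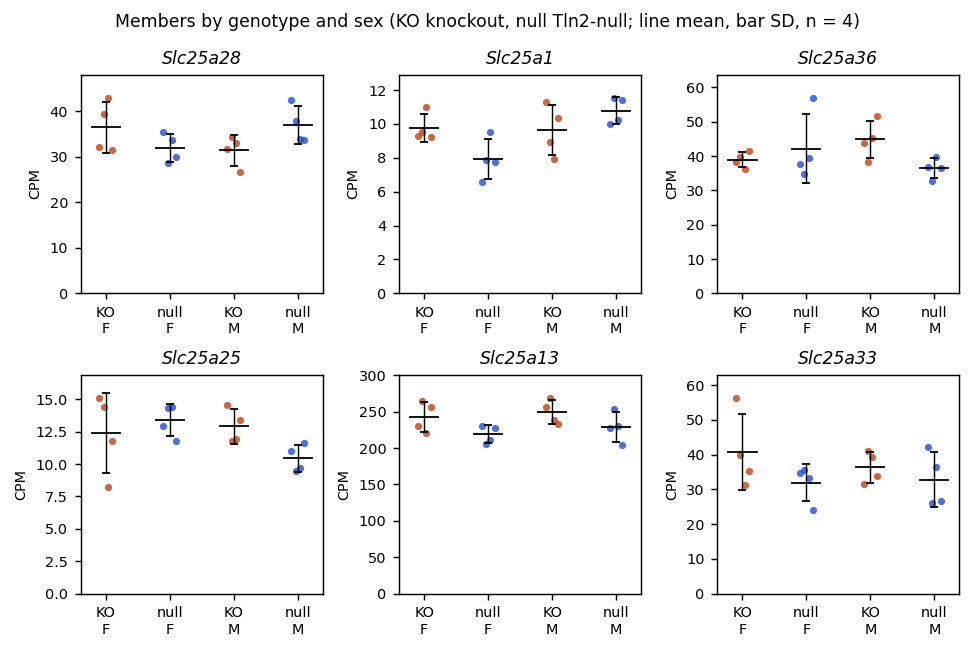
CPM of selected members in each mouse, split by sex and genotype, from 0 upward on a linear axis. KO stands for knockout, null for Tln2-null, F for females and M for males, with 4 mice in each column; horizontal lines mark means and bars the SD. For Slc25a28 and Slc25a1 the knockout mean is above the Tln2-null mean in females and below it in males, with overlapping mice.

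The genotype difference itself was compared between the sexes. Again 0 of 39 members and 0 of 13775 genes passed with edgeR (0% called). Under an unadjusted p of 0.05 were 4 members, 10.3% of the family against 4.27% of all genes. Slc25a28, the widely expressed mitoferrin, had 31.4, 32.3, 39.5 and 43.0 CPM in knockout females, against 28.8, 30.0, 33.7 and 35.4 CPM in Tln2-null females. Knockout males had 26.6, 31.9, 33 and 34.4 CPM, against 33.7, 34.0, 37.9 and 42.5 CPM in Tln2-null males. Genotypes overlapped in both sexes. The difference, females minus males, was 0.42 ± 0.16 (edgeR, adjusted p = 0.980), and 0.20 once the 4 females carrying Y-linked reads were left out, which leaves 1 knockout female. For Slc25a1 it was 0.47 ± 0.19, and 0.39 without those females. For Slc25a36 it was -0.41 ± 0.18, -0.15 without the libraries of high Arntl, and -0.23 without Tln2-null replicate 8 alone. For the sparse Slc25a31 it was 1.74 ± 0.80.

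The spread of the members among mice is given here as a description, with no test. The biological coefficient of variation, edgeR's estimate of the spread beyond counting error, had a median of 0.128 over members and 0.122 over all genes, and 18 members lay below that median of all genes. Highest over lowest CPM was under 1.5 for 19 members and 2 or more for 6. The largest coefficient was that of Slc25a31 at 0.515, where the genotype difference was -0.13 ± 0.43 (edgeR, adjusted p = 0.988), and -0.79 without the 4 females carrying Y-linked reads. It was followed by Slc25a22, a glutamate carrier, at 0.215 and Slc25a29, a carrier of basic amino acids, at 0.195. Slc25a29 had 7.59, 13.9 and 15.6 CPM in the lowest, median and highest knockout ventricle, against 10.2, 12.7 and 19.8 CPM in Tln2-null ventricles, a difference of -0.02 ± 0.14 (edgeR, adjusted p = 0.994). Extremes were most frequent in 2 libraries. Knockout replicate 8, the shallowest, was lowest for 8 members and highest for 0, and Tln2-null replicate 1 was highest for 8 and lowest for 2. Knockout replicate 4 and Tln2-null replicate 3 were highest for 5 each. Extremes were not counted over all genes, so a trait of the family cannot be told from one of the whole library. Slc25a36 was highest in both libraries with high Arntl, at 51.8 CPM in knockout replicate 8 and 56.9 CPM in Tln2-null replicate 8, against 36.3 to 45.4 CPM in other knockout and 32.8 to 39.8 CPM in other Tln2-null ventricles; the part of the clock genes in it was not tested.

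Sample titles end in a number between 1 and 18, whose meaning the labels do not give. With this number as a linear term beside genotype and sex, 1 of 39 members passed with edgeR's quasi-likelihood test, against 874 of 13775 genes (6.34%). At an unadjusted p under 0.05 there were 9 members, 23.1% of the family against 24.2% of all genes, so the members' shares did not exceed the background. The member that passed was Slc25a22 (chromosome 7, 141429744 to 141437892, minus strand), which fell by 0.05 ± 0.01 on the log2 scale per step of the number (SE; edgeR, adjusted p = 0.0327). It had 106.2 CPM at number 1 and 79.9 at number 2, both Tln2-null, a median of 61.6 over the 7 mice numbered 1 to 8, a median of 50.8 over the 9 mice numbered 9 to 18, and 40.7 at number 18, knockout replicate 8. The upper and lower numbers overlapped between 49.6 and 66.7 CPM. The call was lost when either end was left out: without Tln2-null replicate 1 the slope was -0.03 (adjusted p = 0.0993), and without knockout replicate 8 it was -0.04 (adjusted p = 0.0949). It was lost also without Tln2-null replicate 2 (adjusted p = 0.0522), without knockout replicate 7 (0.0554) and without both libraries of high Arntl (0.118). Between genotypes Slc25a22 had 40.7, 61.7 and 66.7 CPM in the lowest, median and highest knockout ventricle, against 49.0, 54.3 and 106.2 CPM in Tln2-null ventricles, a difference of -0.14 ± 0.15 (edgeR, adjusted p = 0.946), 0.04 with the number as a covariate, and 0.0043 without Tln2-null replicate 1.

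**Figure D5:**
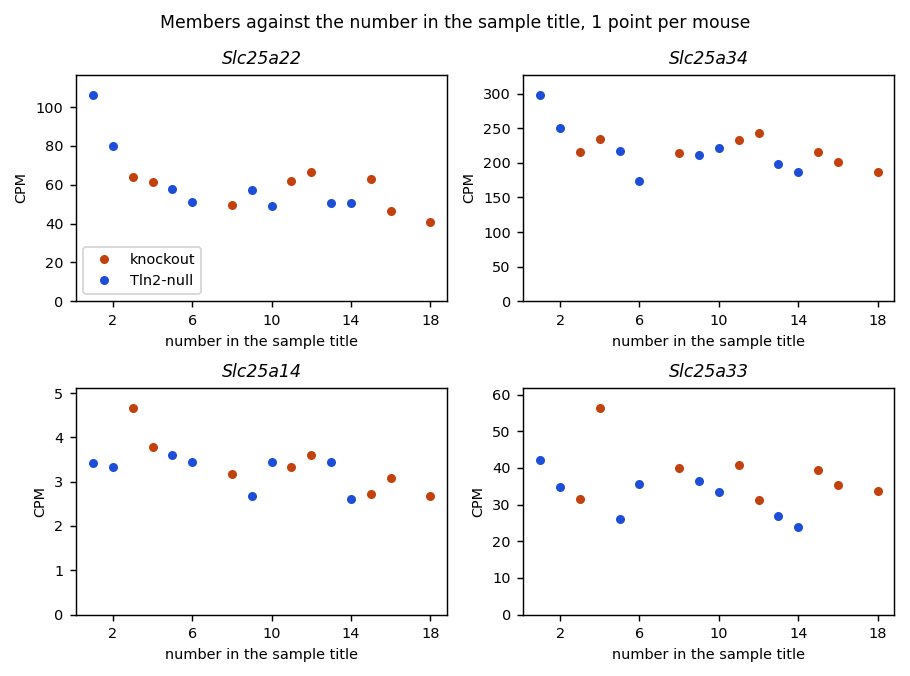
CPM of the 4 members of lowest p for the number that ends the sample title, against that number, 1 point per mouse, knockout and Tln2-null, from 0 upward. Slc25a22 is highest at number 1 (106.2 CPM) and lowest at number 18 (40.7 CPM); the other members shown did not pass.

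After Slc25a22 came Slc25a34, Slc25a14 and Slc25a33, with slopes of -0.02 ± 0.01, -0.03 ± 0.01 and -0.03 ± 0.01 per step (edgeR, adjusted p = 0.0823, 0.102 and 0.134). Of the neighbouring lists, Ucp2, an uncoupling protein, and Got1, the cytosolic aspartate aminotransferase of the malate-aspartate shuttle, fell with the number by 0.05 ± 0.01 and 0.02 ± 0.01 per step, while Tfam, the mitochondrial transcription factor, rose by 0.02 ± 0.01 (edgeR, adjusted p = 0.0217, 0.0400 and 0.0320). Of 7 endothelial markers 1 rose and 2 fell with the number, and of 8 cardiomyocyte markers 1 rose. Of 8 fibroblast markers 1 rose, Lum, by 0.04 ± 0.01 per step (edgeR, adjusted p = 0.0471). Of 5 tested lymphocyte markers 1 rose, the sparse Cd79a, by 0.10 ± 0.03 (edgeR, adjusted p = 0.0347). Whether these markers play a part in the slope of Slc25a22 was not tested.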

How the data were processed

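Per the labels' protocols, left ventricles were homogenised in TRIzol, RNA was purified on a column, and a directional library kit was used. DRAGEN, DESeq2 and mm10 are named in the submitters' processing notes; which annotation and strand the counting used is not stated. The authors deposited whole counts per symbol and a normalized signal, which was the counts divided by 1 size factor per library (100% of values whole within 0.001).

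Counts were tested with edgeR 4.0.16 (R 4.3.3): filterByExpr by genotype and sex, TMM scaling, a quasi-likelihood fit with genotype and sex, and 1 with a mean per genotype and sex. Benjamini-Hochberg adjustment ran over all 13775 genes. A linear term tested the title number. Standard errors were worked back from the F statistic. CPM are TMM-scaled; lengths are from GENCODE M21. The code was tested on simulated counts. Alternatives were DESeq2 1.42.0, limma 3.58.1 (voom, and log2 of normalized values plus 1), other filters and scaling, and left-out libraries. Replicates were numbered in record order within genotype; nothing says they share litters.

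Members and lists were chosen with earlier results of these data known. The values of 1 member are not reported here, though it is part of the counts over all 39. Members were named by fixed rule: any that passed, the lowest p per comparison (6 for genotype and sex, 3 otherwise), the 5 highest levels and 3 largest spreads. The 6 members Slc25a35, Slc25a11, Slc25a23, Slc25a25, Slc25a26 and Slc25a53 overlap a gene on the other strand and are uncertain. With 3 counts as the floor, 0.156 to 0.269 CPM was the limit of detection, for counting error only.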

Additional observations from a re-analysis of the deposited data

Results flagged for a closer look

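In 12 of 102 groups of mice examined (11 of 78 groups of 8 and 1 of 24 groups of 4), 1 mouse lay further from the others than Dixon's 95% limit; chance alone flags about 1 group in 20. In knockout ventricles, Slc25a4 was low at 2815 CPM and Slc25a33 high at 56.2 CPM in replicate 2, Slc25a26 was high at 48.1 CPM in replicate 4, and Slc25a27, an uncoupling-protein relative, was low at 6.79 CPM in replicate 8. Among knockout females, Slc25a1 was high at 11.02 CPM in replicate 5. In Tln2-null ventricles, replicate 1 was high for Slc25a31 (1.98 CPM) and Slc25a42 (120.9 CPM), and replicate 2 was high for Slc25a29 (19.8 CPM) and for Slc25a38, the glycine carrier of heme synthesis (36.1 CPM). Replicate 3 was high for Slc25a26 (45.3 CPM), and replicate 8 for Slc25a24 (17.3 CPM) and Slc25a36 (56.9 CPM).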

How the results depend on the processing

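Over the 33 differences and slopes of named members, 294 of 305 values under other settings kept direction and side of the threshold, 2 were weaker and 9 reversed, and with 1 library left out 509 of 528 did so, 4 were weaker, 2 stronger and 13 reversed. Of the 33, only the slope of Slc25a22 passed in the main fit. The others kept their side of the threshold simply by not passing again, so these counts say little about robustness. No member passed between genotypes or sexes, or in the within-sex and difference tests, under any alternative run. The number of genes called between genotypes was 1 without a filter, 17 with DESeq2, 11 with voom, 2 with limma on the normalized values and 5 without both libraries of high Arntl, and 0 to 7 with 1 library left out. DESeq2 called 21 genes between sexes and 2 between genotypes in females, where leaving out 1 library gave 0 to 1. For the title number DESeq2 called 1379 genes, the fit without the libraries of high Arntl 187 and that without the females with Y-linked reads 219, against 229 to 1162 with 1 library left out; members called were 0 with voom (Slc25a22 adjusted p 0.0548), 0 without the libraries of high Arntl, and 0 to 2 with 1 library left out.

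Reversed genotype differences were all of members near 0 or with a wide interval, and the cause was not tested. Slc25a34 was 0.0339 with voom, 0.0027 with limma and 0.0765 with the title number as covariate (-0.0542 to 0.0679 with 1 library left out). Slc25a31 was 0.181 with voom and 0.206 with the title number (-0.345 to 0.233). With the title number Slc25a22 was 0.0386 (-0.192 to 0.0043) and Slc25a29 was 0.0558, and 0.0105 without the libraries of high Arntl (-0.0765 to 0.088). Slc25a11 was -0.0088 without the females with Y-linked reads (-0.0021 to 0.0434), and Slc25a5 ran from -0.0661 to 0.0171 with 1 library left out. No paired analysis was possible because the labels carry no replicate numbers shared between the genotypes. Depth limits Slc25a31 and Slc25a53.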
